A study of Mus musculus with 6 samples.

Results

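The genes described here encode potassium, voltage-gated calcium, voltage-gated sodium and TRP channels and their auxiliary subunits. They were chosen by symbol: rows beginning with Kcn or Cacn, the Scn alpha and beta subunit genes, the TRPC, TRPM and TRPV genes, and the sulfonylurea receptor genes Abcc8 and Abcc9. This gave 160 of the 24413 gene rows in the table. The symbols also take in 4 non-coding antisense transcripts (Kcnd3os, Kcnmb4os1, Kcnmb4os2 and Kcnq1ot1) and Kcnrg, a regulator that is not a channel.

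RNA-seq was made from W-EGFP cells, which the series names as interstitial cells of the testis, from E16.5 FLE-EGFP mice, with 10000 cells per sample. EGFP in these mice is driven by the fetal Leydig enhancer of Nr5a1, and that transgene defines the cells. The DMSO group (3 libraries) received the vehicle, and the SAG group (3 libraries) received 0.5 µM of Smoothened Agonist, a small molecule that switches on the Hedgehog pathway at Smoothened; both lasted 1 hour. All 6 samples share the FLE-EGFP background, and the names of all 6 data columns carry the element siCnt, which the labels do not explain. No source says whether replicates came from separate animals or cultures, so each p-value refers to the spread among these samples alone, and that spread may be technical.

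Potassium channels set the resting voltage of a cell and repolarise it, calcium channels turn depolarisation into calcium entry, and TRP channels are cation channels opened by lipids, calcium, heat or stretch. Pore-forming subunits of voltage-gated channels work with auxiliary subunits that change their gating and their number at the cell surface. In smooth muscle, L-type calcium channels drive contraction, and BK channels, which open with calcium and voltage, oppose it.

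Values are signals, that is, the authors' scaled CPM, in which a gene's reads are divided by the library's total and a scaling factor; means are given ± SD over n = 3 libraries. Depth was 18486396 to 25491259 reads in DMSO and 7694479 to 8804335 in SAG, so 1 read is a signal of 0.0414 to 0.0564 in DMSO and 0.106 to 0.128 in SAG. SAG replicate 3 stood apart from the other SAG libraries on the second principal component (20.8% of the variance) and the ribosomal transcript Rn45s took 1.67% of its reads, where the other 5 libraries had 0.326% to 0.360%. The treatment check held in every library: the Hedgehog target Gli1 was at 0.704, 0.324 and 0.846 in DMSO and at 32.6, 46.3 and 30.8 in SAG, and Ptch1 at 11.6, 16.1 and 13.2 and at 42.7, 49.4 and 26.8. Markers listed for interstitial progenitors were present, apart from Lhx2 (0 to 0.385), with summed signals of 436 to 455 in DMSO and 912 to 1072 in SAG; 6 of the 7 tested rose and 1 fell. The 7 smooth muscle markers summed to 21154 to 22135 in DMSO and 13366 to 14766 in SAG, and 6 of them fell; tested without a filter, 3 of these calls were lost (limma, Benjamini-Hochberg adjusted p = 0.0822 for Acta2, 0.0701 for Myh11 and 0.0507 for Tagln). The neuron marker Snap25 and the glia markers Sox10 and Foxd3 had 0 reads in all 6 libraries.

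Of the 160 channel genes, 126 had at least 1 read in some library and 34 had none. Those without a read included Scn9a and Scn10a of pain-sensing neurons, the cold sensor Trpm8 and Cacna1f of the retina. At least 1 read in all 3 libraries was found for 78 genes in DMSO and 69 in SAG. With the DMSO reads thinned to the SAG depth the DMSO count was also 69. The channel signals summed to 676, 688 and 680 in DMSO and to 826, 926 and 827 in SAG. A mean signal of at least 1 over the 6 libraries, the condition for testing, was met by 55 genes. Close to that threshold, Abcc9 was tested at a mean signal of 1.07 and Kcnk12 was not tested at 0.937.

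More channel genes rose than fell with SAG. Of the 55 tested, 23 rose and 7 fell (limma, Benjamini-Hochberg adjusted p under 0.05). That is 41.8% higher and 12.7% lower, against 12.9% higher and 16.6% lower among all 12550 tested genes. The median log2 fold change was 0.50 for the channel genes and -0.03 for all genes. The SAG libraries lay above all DMSO libraries for 28 of the 55 and below them for 10, that is 50.9% and 18.2%, against 21.2% and 26.8% of all tested genes. All 30 called channel genes were among those without overlap between the groups. The filter used the mean of all 6 libraries. Some genes that rose, among them Abcc9, Kcnt2, Trpc2, Kcnk3 and Cacna1d, had DMSO means under 1 and passed it only through SAG. The same filter was applied to all genes. In RNA from whole samples, a change in how many cells of a type were present and a change in RNA per cell cannot be told apart. Depth differed between the groups without overlap. Any difference in library handling that follows the groups cannot be told apart from the effect of SAG.

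Most channel genes are weakly transcribed, and many are long. Their median signal was 4.82 against 26.2 for all tested genes, and their median span on the genome was 42703 bases against 24384. Among all tested genes with a mean signal under 30, which 50 of the 55 channel genes had, 15.9% rose and 10.2% fell. Among genes spanning at least 50000 bases, as 26 channel genes do, 10.2% rose and 25.1% fell. Where both held, 13.5% rose and 16.6% fell. These bands were set after the data were seen, and the part of signal level and gene length in the channel counts was not tested.

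**Figure D1:**
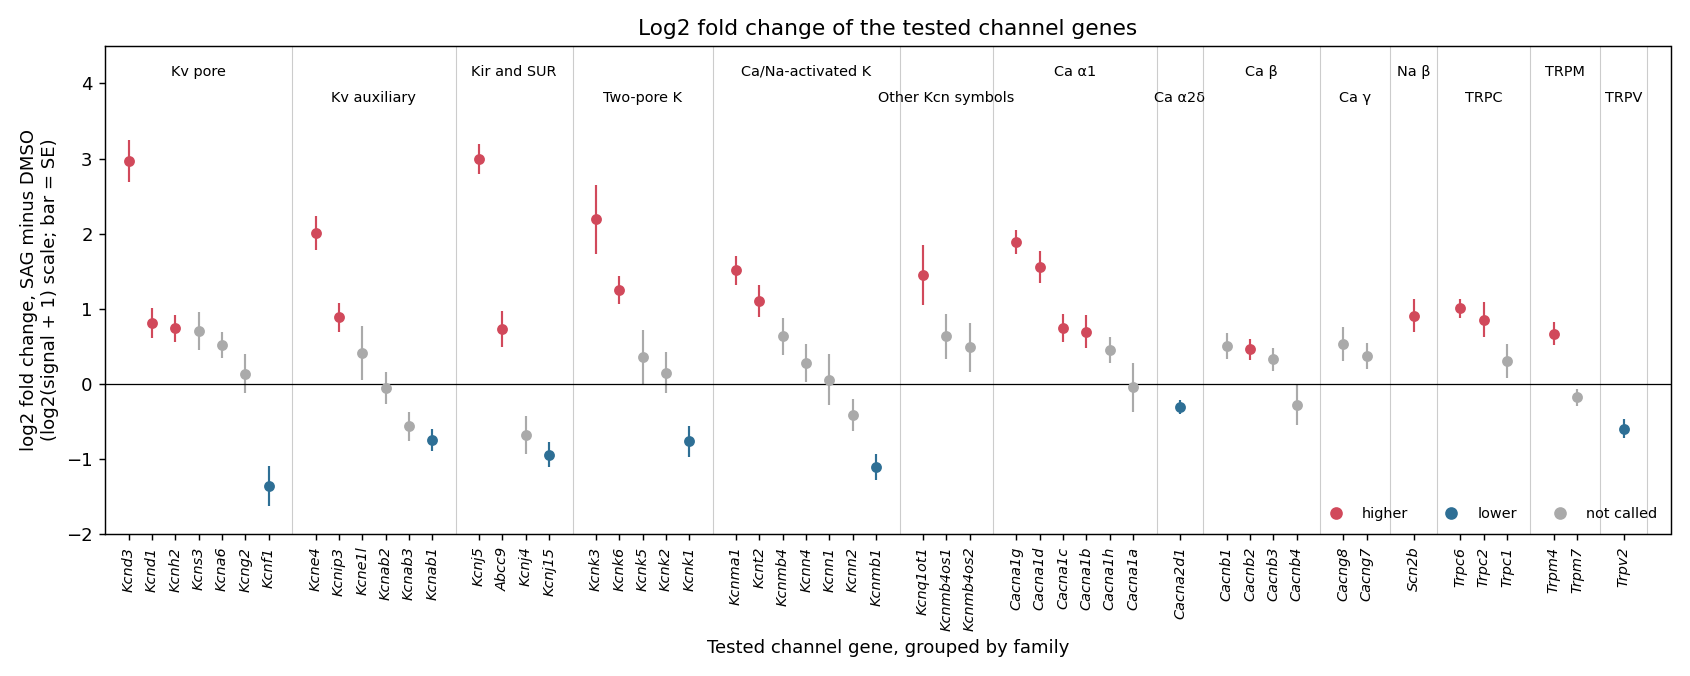
Log2 fold change (SAG against DMSO, computed from log2 of the signal plus 1) of 52 of the 55 tested channel genes, grouped by family, with the standard error as a bar. Red points rose, blue points fell and grey points did not pass limma at a Benjamini-Hochberg adjusted p under 0.05; Kcnj5 and Kcnd3 stand highest, at 3.0 and 2.97, and Kcnf1 lowest, at -1.36.

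Promoter sequences are shown for 4 genes on which these results turn: Kcnj5, Kcnd3 and Kcne4, with 3 of the 4 largest increases in log2 fold change, and Kcnmb1, the auxiliary subunit that fell while its pore rose. Each is the 250 bases before the gene's start in RefSeq on GRCm38.p6, on the gene's strand. Capitals mark CCACCCA, the last 7 bases of the GLI binding consensus GACCACCCA.
Kcnj5 (chr9:32344345-32344594, minus strand): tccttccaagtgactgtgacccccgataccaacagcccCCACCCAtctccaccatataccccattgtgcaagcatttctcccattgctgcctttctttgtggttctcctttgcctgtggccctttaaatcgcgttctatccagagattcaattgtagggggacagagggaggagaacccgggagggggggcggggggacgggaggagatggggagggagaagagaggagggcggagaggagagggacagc
Kcne4 (chr1:78816661-78816910, plus strand): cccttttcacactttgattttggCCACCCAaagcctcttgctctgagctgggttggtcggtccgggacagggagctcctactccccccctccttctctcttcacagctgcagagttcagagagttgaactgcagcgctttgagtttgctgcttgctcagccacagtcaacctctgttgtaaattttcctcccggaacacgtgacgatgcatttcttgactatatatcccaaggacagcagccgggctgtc
Kcnd3 (chr3:105451640-105451889, plus strand): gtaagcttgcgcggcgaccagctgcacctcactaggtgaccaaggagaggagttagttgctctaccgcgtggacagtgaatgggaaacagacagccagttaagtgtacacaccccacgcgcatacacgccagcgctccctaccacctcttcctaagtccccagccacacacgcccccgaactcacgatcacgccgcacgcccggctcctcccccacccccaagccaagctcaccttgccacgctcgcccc
Kcnmb1 (chr11:33962763-33963012, plus strand): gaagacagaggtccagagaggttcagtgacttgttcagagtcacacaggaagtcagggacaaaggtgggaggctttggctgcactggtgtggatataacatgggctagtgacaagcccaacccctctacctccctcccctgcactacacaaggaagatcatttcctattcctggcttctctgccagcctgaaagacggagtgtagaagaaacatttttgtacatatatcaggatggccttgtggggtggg

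Kcnj5 holds the 7-base match at bases 39 to 45 of its window and Kcne4 at bases 24 to 30, both in the gene's own direction. The windows of Kcnd3 and Kcnmb1 hold none on either strand, and that of Kcnd3 lies inside the antisense gene Kcnd3os. RefSeq windows were found for 23 of the 30 called genes (33 windows), and the 7-base word occurs in 4 of these genes, the other 2 being Cacna2d1, which fell, and Cacnb2, which rose. It occurs in 4 of these 33 windows and in 8.11% of all 32851 windows of this length. The whole GACCACCCA occurs in 0 of the 33 windows and in 0.225% of all. The CArG box, bound by the smooth muscle regulator SRF, was searched on both strands. It occurs in 1 of the 33 windows (Trpc6) and in 1.47% of all. The longer GLI word contains the shorter one. A match describes letters only, and says nothing of binding.

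Among pore-forming genes of voltage-gated potassium channels, more rose than fell. Of 40 such genes 31 were detected and 8 tested, of which 4 rose, Kcnd3, Kcnd1 and Kcnh2 among them, and 1 fell (Kcnf1). Kcnd3, which encodes an A-type channel that opens and inactivates quickly, had signals of 0.538, 1.39 and 2.43 in DMSO and of 14.4, 19.4 and 18.1 in SAG. Every SAG library was thus several times above the highest DMSO library. It rose 11.9-fold (log2 fold change 2.97, SE 0.28; limma, Benjamini-Hochberg adjusted p = 1.16e-04), and 18.0-fold without DMSO replicate 3, the highest of its group. Kcnd1, its close relative, rose 2.14-fold, from 2.0 ± 0.177 to 4.27 ± 0.729.

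The antisense transcript Kcnd3os starts inside Kcnd3 and runs the other way across the beginning of that gene. It was below the filter, with 6, 0 and 0 reads in DMSO and 14, 19 and 11 in SAG at the lower depth. Tested without a filter, and named after its values were seen, it rose as well (log2 fold change 1.30, SE 0.15; limma, Benjamini-Hochberg adjusted p = 0.00141). Both genes lie on chromosome 3 of GRCm38, Kcnd3 at 105452330 to 105674002 on the plus strand and Kcnd3os at 105441595 to 105452955 on the minus strand. They share 165 exon bases, which are 1.72% of those of Kcnd3 and 12.2% of those of Kcnd3os. The libraries were made with a kit that keeps strand, but the strand setting of the counting is not given in the sources used here, so reads of that stretch could be counted to either gene.

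Kcnh2, which encodes the channel of the rapid delayed rectifier current of the heart, went from 33.4, 30.9 and 26.5 to 40.4, 67.9 and 48.2. The lowest SAG library was above the highest DMSO library, and the increase was 1.72-fold (log2 fold change 0.74, SE 0.18). The calls of Kcnh2 and Kcnd1 depended on the DMSO libraries, since neither was called without DMSO replicate 2 or without DMSO replicate 3. Over the alternatives the Benjamini-Hochberg adjusted p reached at most 0.0731 for Kcnh2 and 0.0644 for Kcnd1.

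Kcnf1 encodes an electrically silent subunit that forms channels only with other members of the class. Its signals were 4.80, 4.53 and 5.30 in DMSO and 1.21, 0.636 and 2.31 in SAG, with no overlap. It was 3.52-fold lower in SAG (log2 fold change -1.36, SE 0.27; limma, Benjamini-Hochberg adjusted p = 0.00519), and 5.29-fold lower without SAG replicate 3. The other 3 tested genes were Kcna6, at 4.46 ± 0.116 and 6.86 ± 1.17, Kcns3, at 0.748 ± 0.129 and 1.89 ± 0.680, and Kcng2, at 1.25 ± 0.215 and 1.53 ± 0.695. Kcna6 lay higher in every SAG library but was not called (limma, Benjamini-Hochberg adjusted p = 0.0526), and so did Kcns3 (0.0606), which was called without a filter (0.0420). Of the exon bases of Kcna6, 39.6% are shared with Gm26673 on the opposite strand, so its reads are uncertain.

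Of the KCNQ channel genes, whose products give slow currents that stabilise the resting voltage, Kcnq1, Kcnq3 and Kcnq5 had at most 8 reads in any library.

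Auxiliary subunits of voltage-gated potassium channels moved in both directions, with 2 of 6 tested genes rising and 1 falling among 12 in all. Kcne4 encodes a single-pass membrane protein that dampens several potassium channels. It was at 2.24, 3.70 and 3.16 in DMSO and at 11.3, 15.9 and 18.8 in SAG, with no overlap. The increase was 5.05-fold (log2 fold change 2.01, SE 0.22; limma, Benjamini-Hochberg adjusted p = 2.83e-04), and per kb of exon Kcne4 moved from place 21 among the 55 tested channel genes in DMSO to place 6 in SAG. Of its relatives Kcne1, Kcne2 and Kcne3 had 0 reads. Kcne1l was at 1.04 ± 0.436 and 1.89 ± 1.33 and was not called; its SAG to DMSO ratio was 1.81, and 1.18 without SAG replicate 3.

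Kcnip3, a calcium-binding partner of the Kcnd channels, rose 1.99-fold, from 6.50, 7.53 and 8.35 to 17.8, 15.7 and 11.05. Kcnab1, a cytoplasmic beta subunit, fell, from 25.1, 22.7 and 28.1 to 14.7, 12.7 and 16.6. It was 1.73-fold lower (log2 fold change -0.75, SE 0.15; limma, Benjamini-Hochberg adjusted p = 0.00493), and neither gene overlapped between the groups. The other beta subunit genes were not called. Kcnab3 was lower in every SAG library, at 10.1 ± 0.756 and 6.64 ± 1.79, with a Benjamini-Hochberg adjusted p of 0.0537 from limma. Kcnab2 was at 1.69 ± 0.294 and 1.58 ± 0.198.

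**Figure D2:**
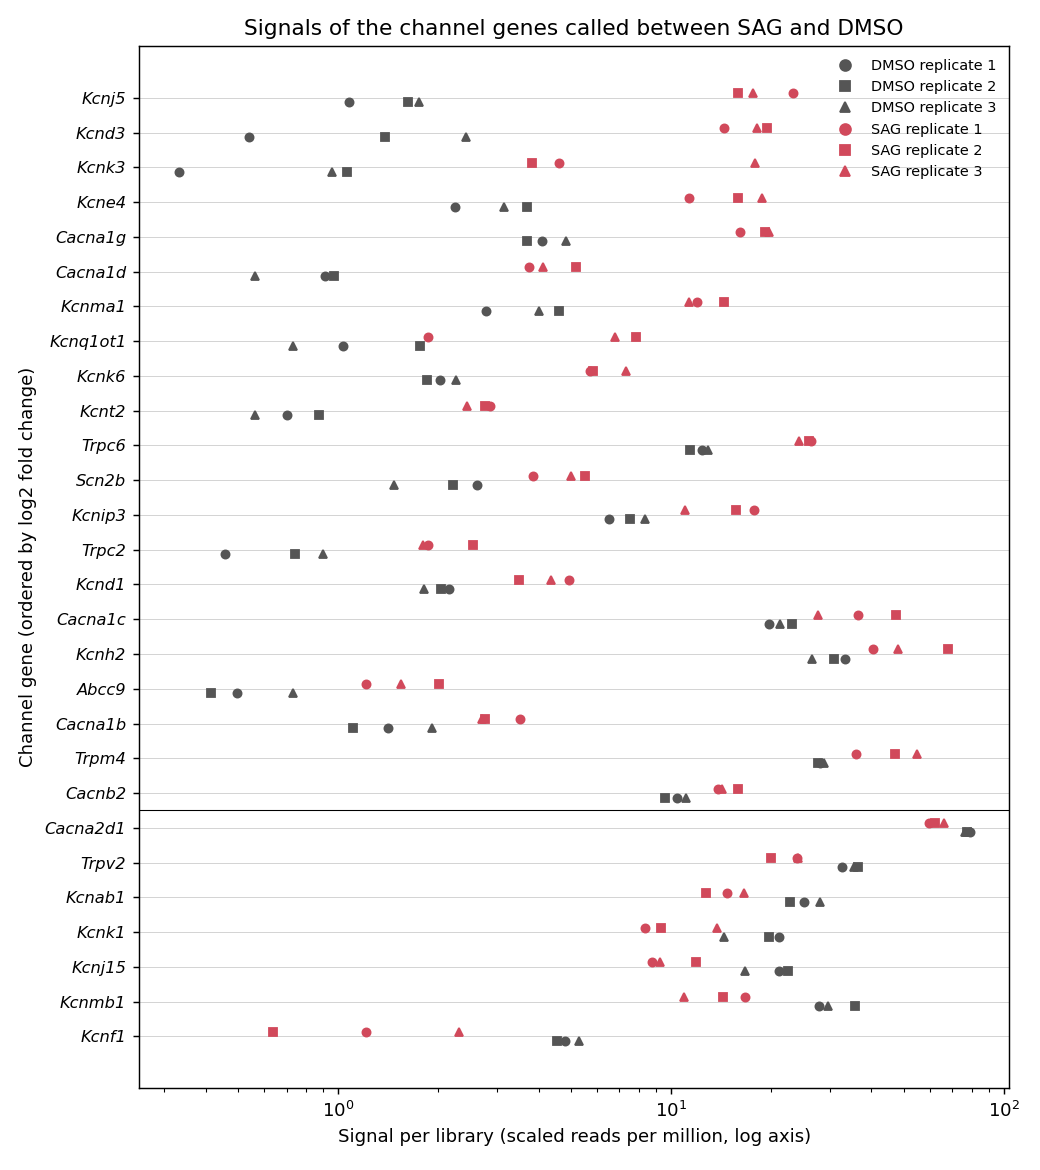
Signal of 28 of the 30 called channel genes in each of the 6 libraries, on a log axis, ordered by log2 fold change; grey symbols are DMSO, red symbols SAG, and the symbol's shape gives the replicate number. The 21 genes above the line rose and the 7 below it fell, and in each of the 28 no SAG library overlaps a DMSO library.

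Inward rectifiers pass potassium more easily into the cell than out of it, which holds the membrane near its resting voltage. Of 17 genes in this group, the sulfonylurea receptors included, 12 were detected and 4 tested; 2 rose and 1 fell. Kcnj5, a subunit of the channel that G proteins open downstream of acetylcholine in the heart, rose most of all 55 tested channel genes on the log2 scale. Its signals were 1.08, 1.62 and 1.75 in DMSO and 23.2, 15.9 and 17.6 in SAG, which rests on 26 to 35 reads per DMSO library and 137 to 211 per SAG library. The increase was 12.8-fold (log2 fold change 3.0, SE 0.20; limma, Benjamini-Hochberg adjusted p = 2.36e-05) and stayed between 11.2-fold and 14.0-fold whichever library was left out.

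Kcnj5, whose promoter is printed above with its 7-base match, lies on chromosome 9 of GRCm38 at 32314707 to 32344350 on the minus strand. Its neighbour Kcnj1, 28142 bases away, had 0 reads in all 6 libraries, and so had Kcnj9, which encodes another subunit of G-protein-gated channels.

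Kcnj15, which encodes an inward rectifier found in epithelia, went the other way. It was at 21.1, 22.5 and 16.6 in DMSO and at 8.79, 11.9 and 9.25 in SAG, with no overlap. It was 2.01-fold lower (log2 fold change -0.94, SE 0.17; limma, Benjamini-Hochberg adjusted p = 0.00343). In DMSO its signal per kb was 3.18 against 0.316 for Kcnj5, and in SAG 1.58 against 4.03, so the order of these inward rectifiers was exchanged. Kcnj4, a strong inward rectifier, was lower in every SAG library, at 4.73 ± 0.784 and 2.69 ± 1.19, and was not called (limma, Benjamini-Hochberg adjusted p = 0.0712).

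ATP-sensitive potassium channels join a Kcnj8 or Kcnj11 pore to an Abcc8 or Abcc9 receptor, and the Kcnj8 and Abcc9 pair is the one known from vessels and pericytes. Kcnj11 and Abcc8 had 0 reads. Abcc9 had 12, 9 and 13 reads in DMSO and 11, 19 and 12 in SAG, which at the different depths are signals of 0.549 ± 0.165 and 1.59 ± 0.404. Its neighbour Kcnj8, 16247 bases away on chromosome 6, had 0, 4 and 5 reads in DMSO and 3, 6 and 18 in SAG, and was below the filter. Both were thus near the limit of what these libraries can measure.

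Abcc9 was called (limma, Benjamini-Hochberg adjusted p = 0.0451), but the call was lost without any 1 of the DMSO libraries, with a pseudocount of 5, with thinned DMSO reads and with a replicate block. Without SAG replicate 2 or 3 it was under the filter, and over its other alternatives the adjusted p ran from 0.0117 to 0.149. Of the 9 pericyte and vascular smooth muscle markers 5 were tested, of which 1 rose and 3 fell (Des not without a filter), with summed signals of 1504 to 1658 in DMSO and 1113 to 1427 in SAG. Steap4, below the filter with 0 reads in every DMSO library and 7, 4 and 2 in SAG, was called higher without a filter (limma, Benjamini-Hochberg adjusted p = 0.0227). The pericyte marker Rgs5 was at 0 to 1.17 and Higd1b had 0 reads in all libraries but SAG replicate 3. The part of these cells in the Abcc9 and Kcnj8 values was not tested.

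Tandem-pore potassium channels carry the leak current that sets the resting voltage. Of 14 genes 11 were detected and 5 tested, of which 2 rose (Kcnk3 and Kcnk6) and 1 fell (Kcnk1). Kcnk3, an acid-sensitive leak channel well known from the adrenal cortex, was at 0.331, 1.063 and 0.959 in DMSO and at 4.61, 3.81 and 17.9 in SAG. SAG replicate 3 was far above the other 2 SAG libraries, which in turn were above all DMSO libraries. The increase was 11.2-fold with all libraries (log2 fold change 2.19, SE 0.46; limma, Benjamini-Hochberg adjusted p = 0.00730). Without SAG replicate 3 it was 5.37-fold (log2 fold change 1.57) and was still called.

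Some steroidogenic markers were also highest in SAG replicate 3. The summed signal of the 3 adrenal markers (Cyp21a1, Cyp11b1 and Mc2r) was 1.82 to 2.31 in DMSO and 6.92, 3.18 and 60.4 in SAG replicates 1 to 3; 1 of the 2 tested, Cyp21a1, rose and none fell. Cyp21a1 had 0 reads in DMSO and signals of 2.64, 1.80 and 35.3 in SAG, and without a filter its call was lost (limma, Benjamini-Hochberg adjusted p = 0.0516). The 7 fetal Leydig markers summed to 134 to 135 in DMSO and to 208, 210 and 277 in SAG, with 2 of the 4 tested rising (Hsd3b1 and Thbs2) and none falling. Most of that sum was Thbs2, at 103, 101 and 102 in DMSO and at 185, 191 and 161 in SAG, lowest of the SAG libraries in replicate 3. Star was at 23.9, 25.0 and 24.3 in DMSO and at 11.97, 11.2 and 50.7 in SAG. Cyp11a1 was at 6.87, 7.03 and 8.63 in DMSO and at 7.25, 5.61 and 33.9 in SAG, and was not called. The listed genes Cyp17a1 and Hsd3b6 had 0 reads in all SAG libraries and at most 0.290 in DMSO. Insl3 was at 0.113 to 1.24 in DMSO and 0 to 0.257 in SAG. The part of cells with these markers in the Kcnk3 value was not tested. Kcnj5, which the adrenal cortex also expresses, was not highest in SAG replicate 3. The part of such cells in the Kcnj5 value was not tested either.

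**Figure D3:**
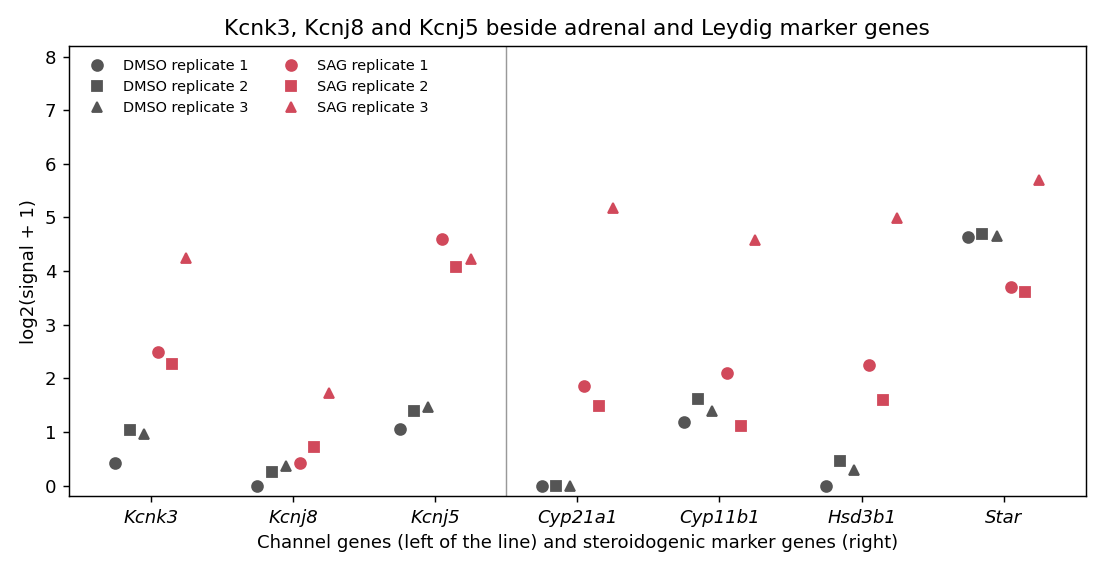
Level of the channel genes Kcnk3, Kcnj8 and Kcnj5 and of the marker genes Cyp21a1, Cyp11b1, Hsd3b1 and Star in the 6 libraries, as log2(signal + 1), with DMSO in grey, SAG in red and the replicate number given by the symbol's shape. SAG replicate 3 is the highest library for every gene shown but Kcnj5, whose signals in SAG are 23.2, 15.9 and 17.6. Of the listed adrenal and fetal Leydig markers not drawn, Cyp11a1 and Mc2r were also highest in that library. Thbs2, Insl3, Cyp17a1 and Hsd3b6 were not.

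Kcnk6 rose 3.07-fold, from 2.03, 1.85 and 2.26 to 5.71, 5.83 and 7.32 (log2 fold change 1.25, SE 0.19; limma, Benjamini-Hochberg adjusted p = 0.00131). Kcnk1, the tandem-pore gene with the highest signal per kb, was lower in SAG, at 21.1, 19.7 and 14.4 and at 8.35, 9.32 and 13.7. Only a narrow gap separated the lowest DMSO from the highest SAG library. Kcnk1 was 1.76-fold lower (limma, Benjamini-Hochberg adjusted p = 0.0221), and the call was lost without DMSO replicate 1 or 2 or SAG replicate 1 or 2 (at most 0.101). Kcnk2, which responds to stretch, and Kcnk5 were not called, at log2 fold changes of 0.15 (SE 0.27) and 0.35 (SE 0.36). Kcnk12 was below the filter with 61, 32 and 10 reads in DMSO and 3, 2 and 4 in SAG, and was not called without a filter (log2 fold change -0.83, SE 0.27; limma, Benjamini-Hochberg adjusted p = 0.0717).

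BK channels showed opposite changes in the pore and in its smooth muscle subunit. Kcnma1, the pore, was at 2.77, 4.62 and 4.0 in DMSO and at 11.97, 14.4 and 11.3 in SAG. It rose 3.31-fold (log2 fold change 1.51, SE 0.19; limma, Benjamini-Hochberg adjusted p = 6.57e-04). Kcnmb1 encodes the beta subunit that makes the pore more sensitive to calcium in smooth muscle. It was at 27.8, 35.7 and 29.6 in DMSO and at 16.7, 14.3 and 10.9 in SAG, 2.22-fold lower (log2 fold change -1.11, SE 0.17; limma, Benjamini-Hochberg adjusted p = 0.00165). Neither gene overlapped between the groups, and both were called in all 17 alternatives.

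Per kb of exon, Kcnmb1 stood above Kcnma1 by a factor of 40.6, 31.3 and 29.9 in DMSO and of 5.65, 4.02 and 3.91 in SAG. This ratio is taken within each library and does not depend on the scaling between libraries. It was lower in every SAG library, and the exact two-sided permutation test on its logarithm gave p = 0.1, the smallest that 3 against 3 libraries allow. Since Kcnma1 rose and Kcnmb1 fell without overlap, this order was fixed in advance, and the test adds nothing to the 2 calls. Kcnmb4, a beta subunit best known from neurons, was at 2.0 ± 0.747 and 3.60 ± 0.716 and was not called. Its exons overlap those of Kcnmb4os1 and Kcnmb4os2 on the opposite strand over 31.5% of their length, so its reads are uncertain. Kcnmb3 had 0 reads, and Kcnmb2 had at most 7 in a library. The fall of Kcnmb1 stood beside that of the smooth muscle markers, of which 6 of 7 fell (Acta2, Myh11 and Tagln not without a filter); their part in it was not tested.

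Of the other calcium- or sodium-activated potassium channels, Kcnt2, which sodium opens, rose 3.751-fold, from 0.704, 0.878 and 0.564 to 2.86, 2.75 and 2.44. The calcium-activated small- and intermediate-conductance genes Kcnn1, Kcnn2 and Kcnn4 were not called, with log2 fold changes of 0.05 (SE 0.34), -0.42 (SE 0.21) and 0.28 (SE 0.25). Over the whole family, 11 of 12 genes were detected and 7 tested, of which 2 rose and 1 fell.

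The non-coding Kcnq1ot1, an imprinted transcript antisense to Kcnq1, had signals of 1.04, 1.76 and 0.733 in DMSO and of 1.87, 7.84 and 6.81 in SAG. SAG replicate 1 lay just above the highest DMSO library. Its increase was 4.69-fold (limma, Benjamini-Hochberg adjusted p = 0.0239), and the call was lost without DMSO replicate 1 or 3 or SAG replicate 2 (at most 0.0932). Its 93092 exon bases make it the longest of the tested transcripts here and the lowest per kb. The antisense genes Kcnmb4os1 and Kcnmb4os2 were not called, at log2 fold changes of 0.63 and 0.48.

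The pore-forming subunits of calcium channels rose or were not called, and none fell. Of 10 genes 9 were detected and 6 tested, of which 4 rose. Cacna1g encodes a T-type channel, which opens at low voltage. It was at 4.1, 3.70 and 4.85 in DMSO and at 16.1, 19.2 and 19.7 in SAG, 4.35-fold higher (log2 fold change 1.89, SE 0.16; limma, Benjamini-Hochberg adjusted p = 7.04e-05). The lowest SAG library was more than 3 times the highest DMSO library.

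The T-type gene Cacna1h overlapped between the groups, at 22.6, 24.6 and 17.3 in DMSO and 24.1, 35.6 and 29.7 in SAG, and was not called (log2 fold change 0.45, SE 0.18; limma, Benjamini-Hochberg adjusted p = 0.0859). It was called with scaling by library total, with DESeq2 and without SAG replicate 1 or 3, and its adjusted p ran from 0.0194 to 0.301 over the alternatives. Per kb, Cacna1h stood above Cacna1g by a factor of 5.73, 6.92 and 3.69 in DMSO and of 1.55, 1.93 and 1.57 in SAG (exact two-sided permutation p = 0.1, the smallest possible). The ranges of the 2 genes already fix this order, so the test adds nothing to the call of Cacna1g. The remaining T-type gene, Cacna1i, had 8 reads in DMSO replicate 1 and none elsewhere.

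L-type channels open at higher voltage and supply the calcium for contraction. Cacna1d was at 0.911, 0.971 and 0.564 in DMSO and at 3.73, 5.19 and 4.11 in SAG. It rose 5.33-fold (log2 fold change 1.56, SE 0.22; limma, Benjamini-Hochberg adjusted p = 9.47e-04), with 10 to 22 reads in each DMSO library. Cacna1c, the L-type gene of smooth muscle and heart, rose 1.74-fold, from 19.7, 23.1 and 21.3 to 36.4, 47.5 and 27.6. Its call was lost without DMSO replicate 1 or 3 (limma, Benjamini-Hochberg adjusted p at most 0.0697). Cacna1c remained the more abundant per kb in every library, by a factor of 16.52 ± 5.23 in DMSO and 5.08 ± 0.952 in SAG.

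Cacna1b and Cacna1a encode calcium channels known from presynaptic terminals; the difference between the 2 genes was not tested. Cacna1b (N-type) was at 1.48 ± 0.409 and 2.99 ± 0.457 and was called, but not in 7 of the 16 alternatives that tested it, among them each library left out except SAG replicate 3 (limma, Benjamini-Hochberg adjusted p from 0.0159 to 0.152). Cacna1a (P/Q-type) was at 2.70 ± 0.900 and 2.69 ± 1.37, with a log2 fold change of -0.05 (SE 0.32).

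**Figure D4:**
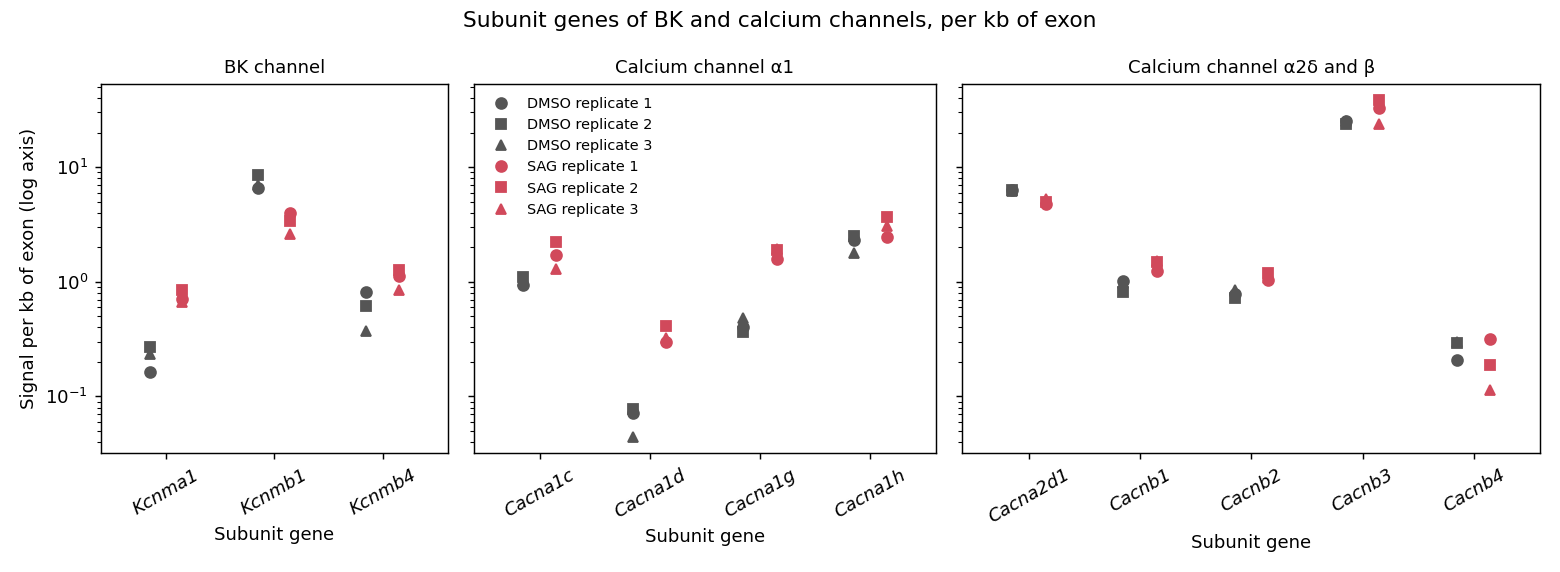
Signal per kb of exon (log axis) in each library for subunit genes of BK channels, for the pore genes of L-type (Cacna1c, Cacna1d) and T-type (Cacna1g, Cacna1h) calcium channels, and for auxiliary calcium channel subunits; DMSO is grey and SAG red. Kcnmb1 falls towards Kcnma1, Cacna1g rises towards Cacna1h, and Cacnb3 is the highest of all genes shown in every library.

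Among the auxiliary calcium channel subunits, Cacnb2 rose and Cacna2d1 fell. Cacna2d1, the alpha2delta subunit that brings pores to the membrane and binds gabapentin, was at 79.1, 77.7 and 76.5 in DMSO and at 59.8, 62.0 and 66.0 in SAG. It was 1.24-fold lower without overlap (log2 fold change -0.31, SE 0.10; limma, Benjamini-Hochberg adjusted p = 0.0394). The call was lost in 9 of 17 alternatives: without any 1 library but SAG replicate 3, with scaling by library total (log2 fold change -0.17), without trend, with edgeR and with a replicate block. Its relatives Cacna2d2 and Cacna2d3 had at most 4 reads in a library, and Cacna2d4 had none.

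Beta subunits sit inside the cell and carry pores to the surface. Cacnb3 had the highest signal per kb of all tested channel genes, 24.7 in DMSO and 31.6 in SAG. Its libraries were at 100, 95.3 and 102 in DMSO and at 131, 153 and 96.1 in SAG, so SAG replicate 3 fell into the DMSO range. It was not called (log2 fold change 0.33, SE 0.16), and was called without SAG replicate 3 (0.51). Over the alternatives its Benjamini-Hochberg adjusted p from limma, edgeR or DESeq2 ran from 1.28e-05 to 0.361.

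Cacnb2 rose 1.41-fold, from 10.4 ± 0.773 to 14.7 ± 1.08 (limma, Benjamini-Hochberg adjusted p = 0.0333), and was not called without any 1 of DMSO replicates 1, 2 and 3 or SAG replicate 2, without a filter or with a replicate block (at most 0.138). Cacnb1, at 4.23 ± 0.472 and 6.40 ± 0.707, was higher in every SAG library and missed the threshold (limma, Benjamini-Hochberg adjusted p = 0.0551). It passed with a pseudocount of 5, with scaling by library total, without trend and with DESeq2 (0.0246 to 0.194 over all alternatives). Cacnb4 was at 2.38 ± 0.450 and 1.86 ± 0.925 and was not called in any alternative.

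The gamma subunit genes Cacng7 and Cacng8, of the family of proteins that carry glutamate receptors, lie 22461 bases apart on chromosome 7 and were not called. Cacng7 was at 20.1, 16.46 and 18.7 and at 28.9, 26.0 and 18.6, again with SAG replicate 3 in the DMSO range, and was called without that library (log2 fold change 0.55 against 0.38). Its Benjamini-Hochberg adjusted p from limma, edgeR or DESeq2 ran from 0.00105 to 0.342. Cacng8 was at 3.69 ± 0.0399 and 5.95 ± 2.08.

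No pore gene of a sodium channel was tested: 7 of 9 were detected, and the highest mean signal was 0.812, that of Scn7a. Scn7a encodes an atypical channel that senses sodium and is not opened by voltage. It had 6, 2 and 0 reads in DMSO and 10, 13 and 16 in SAG, and rose when tested without a filter (log2 fold change 1.16, SE 0.17; limma, Benjamini-Hochberg adjusted p = 0.00354); it is named because of these values.

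Among the beta subunit genes of sodium channels, Scn2b rose 2.28-fold, from 2.10 ± 0.581 to 4.79 ± 0.854; its call was lost with thinned DMSO reads and without DMSO replicate 3 (limma, Benjamini-Hochberg adjusted p at most 0.0662). No pore gene for this subunit reached the filter.

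Among the TRP channels, TRPC genes rose or were not called. Of 7 TRPC genes 6 were detected and 4 tested. Trpc6, a calcium-permeable channel opened by diacylglycerol, was at 12.4, 11.4 and 12.9 in DMSO and at 26.4, 26.1 and 24.3 in SAG. The libraries of each group lay close together, and the increase was 2.09-fold (log2 fold change 1.01, SE 0.13; limma, Benjamini-Hochberg adjusted p = 5.53e-04) and between 2.02-fold and 2.15-fold whichever library was left out. Trpc1 was at 5.48 ± 1.19 and 7.05 ± 2.01 and was not called. Trpc2 was called higher, at 0.699 ± 0.226 and 2.07 ± 0.411, but all of its exon bases are shared with Xntrpc or Xndc1 on the same strand, so its reads are uncertain, and the call was lost without any 1 DMSO library or SAG replicate 2 (at most 0.101).

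Trpm4, a channel opened by calcium that passes sodium and potassium, was at 28.0, 27.6 and 28.8 in DMSO and at 35.9, 47.2 and 54.7 in SAG. It rose 1.63-fold (log2 fold change 0.67, SE 0.15; limma, Benjamini-Hochberg adjusted p = 0.0107), with a narrow DMSO and a wide SAG range. Trpm7, a channel joined to a kinase that carries magnesium, was among the most abundant channel genes and was not called, at 90.2 ± 2.63 and 79.9 ± 10.4 (log2 fold change -0.18, SE 0.12). Trpv2 was the only TRPV gene tested and it fell, from 32.5, 36.4 and 35.5 to 23.9, 19.9 and 24.1 (log2 fold change -0.60, SE 0.13; limma, Benjamini-Hochberg adjusted p = 0.00699). No other TRPV gene reached a mean signal of 0.119.

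Other genes that handle the same ions were looked at as a list of 73 pumps, exchangers, release channels and channel regulators, of which 72 were in the table and 41 tested. Of these 10 rose and 10 fell, 24.4% each, against 12.9% higher and 16.6% lower among all tested genes, with a median log2 fold change of 0.04. The 3 tested RGK genes, small GTPases that restrain L-type channels, all rose: Rrad from 0.649 ± 0.155 to 1.80 ± 0.372, Gem from 11.4 ± 2.64 to 18.5 ± 1.58 and Rem1 from 17.4 ± 1.40 to 24.2 ± 4.07. Rrad passed the filter only through SAG. The remaining RGK gene, Rem2, was not tested, with 7, 0 and 4 reads in DMSO and 0 in every SAG library. The call of Rem1 was near the threshold (limma, Benjamini-Hochberg adjusted p = 0.0475) and was lost without a filter (0.0739). Orai3, a store-operated calcium channel, rose 1.87-fold, from 17.3, 19.4 and 17.4 to 35.0, 30.3 and 36.0. Its relatives Orai1 and Orai2 and the sensors Stim1 and Stim2 were not called. The release channel Ryr2 rose 2.22-fold, while the release channels Itpr2 and Itpr3 were 1.70-fold and 1.64-fold lower.

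Calcium pumps differed by gene. Atp2b4, which exports calcium across the plasma membrane, was 2.37-fold lower, at 415, 452 and 391 in DMSO and 190, 223 and 118 in SAG, while Atp2b1 was at 123 ± 1.96 and 127 ± 14.2. Atp2a2, which refills the store in muscle, was 1.24-fold lower, at 594 ± 18.7 and 479 ± 33.3. Atp2a3 rose from 0.303 ± 0.227 to 2.77 ± 1.17, and passed the filter only through SAG. Jph2, which ties the store to the surface membrane in muscle, was 1.39-fold lower, and the stretch-gated channel Piezo1 1.41-fold lower.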

How the data were processed

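The study's deposited table gives 1 signal per gene and library: per the file name and values it is CPM with the authors' scaling inside. The build GRCm38 and the tools STAR, edgeR 2.2.1, featureCounts 2.0.0 and Trim Galore 0.6.4 are named per the submitters' processing notes; the annotation and strand setting are not given in the sources used here. Every signal was a whole number of reads within 0.01, so reads were recovered; 92 spike-in rows (at most 0.0157% of reads) were left out, and 7098 of 24413 genes had none. The 12550 genes whose mean signal reached 1 were tested with limma 3.58.1 (R 4.3.3), with trend, on log2(signal + 1), which understates changes of low genes, with calls at Benjamini-Hochberg adjusted p below 0.05. On simulated counts (12478 genes) this recovered 29.9% of 97 changes of 1.5-fold and 77% of 100 changes of 2-fold, and 9.4% of calls were false. In the data 1625 genes were called higher and 2084 lower, a far larger share. The simulated rates therefore cannot be carried over to the data. Alternatives included edgeR 4.0.16, DESeq2 1.42.0, other pseudocounts, filters and scaling, and each library left out. All 160 channel genes matched GENCODE M21 by symbol; per-kb values use its merged exon length. Named genes were the called ones, the 5 most abundant per kb, and subunits of the same complexes; other tested genes complete their families, and they, Scn7a and Kcnd3os were named after their values were seen. Members and lists were chosen with earlier results of these data known. Some genes are not reported here by name, though the counts include them.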

Additional observations from a re-analysis of the deposited data

Results flagged for a closer look

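Reads on spike-in RNA rows, which no comparison uses, numbered 111, 54 and 1205 in SAG replicates 1, 2 and 3 and 0 in every DMSO library. Spike-in reads thus follow the groups, as depth does, and a difference in library handling cannot be told apart from SAG. SAG replicate 3 is also the highest SAG library for Kcnk3 and Kcnj8.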

How the results depend on the processing

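The channel counts kept their direction in all alternatives run: more rose than fell. Raising the filter to 5 left 27 channel genes tested, of which 13 rose and 6 fell. Of all 10553 genes tested at that filter, 1342 rose and 1962 fell. Leaving out 1 library gave 15 to 28 higher channel genes, the fewest without DMSO replicate 3 and the most without SAG replicate 3, and 5 to 9 lower. For all genes, leaving out 1 library gave 901 to 2463 higher and 1086 to 3373 lower, with the same libraries at the ends. Scaling by library total gave 2477 higher and 1259 lower, against 1625 and 2084, and moved the all-gene median log2 fold change from -0.03 to 0.10; the share of calls that were higher went from 43.8% to 66.3% for all genes and from 76.7% to 82.4% for channel genes. The cause of these shifts was not tested. Of the 30 called channel genes, 18 were called wherever they were tested, and 12 lost the call in at least 1 alternative. None of the 38 tested genes followed through the alternatives reversed, and the other genes given by name were not followed in this way. With a replicate block, 20 of 55 channel genes rose and 7 fell, against 1549 and 1976 of all 12550 tested genes. Deviations of same-numbered libraries from their group means correlated at -0.0231, 0.0332 and -0.000173. With 3 libraries per group and SAG replicate 3 standing apart, these values cannot settle whether the numbers pair the samples. SAG depth, 2.67 times below DMSO, limits genes with few reads.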
